A study of Mus musculus with 8 samples.

Results

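The probes described here are those of a mouse whole-genome array that carry the name of a stretch of chromosome in place of a gene, and that gave a signal in liver. Of 55681 non-control probes on the array, 16194 had such a name (chr, a start, an end and a letter for the strand). A probe counted as expressed where the scanner software called it well above background in at least 4 of 8 samples, and 3168 region probes met this. They lie in 1872 of the 4610 regions that the array names. Among all probes expressed by the same rule, 22031, the region probes stand beside 18863 others. The members were thus selected on their calls above background, so levels and calls are given below as a description.

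Livers of mice homozygous for a mutant Pus1 allele were compared with livers of wild-type mice, to ask which transcripts differ when pseudouridine synthase 1 is lost. This enzyme isomerizes uridines of tRNA and of some other RNAs to pseudouridine. There were 4 mutants, 2 females and 2 males, and 4 wild types, 2 females and 2 males, all 14 to 16 weeks old and of strain C57BL/6J, to which the line had been backcrossed for 5 generations. The kind of mutation and the cells in which it acts are not given in the labels, whose series title calls it a knockout. Each of 4 2-colour arrays held 1 mutant and 1 wild type of the same sex, females on arrays 1 and 2 and males on arrays 3 and 4. The mutant carried Cy5 on arrays 1 and 3 and Cy3 on arrays 2 and 4.

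Much of a mammalian genome outside known genes is copied into RNA. Long intergenic non-coding RNAs are made by RNA polymerase II like messenger RNA, are often capped, spliced and polyadenylated, and as a class are scarcer and more restricted to certain tissues than messenger RNA. Several stay in the nucleus, where some act on chromatin or on splicing. A probe designed to such a stretch reports only that RNA matching it was present. The files name no gene for these regions and no annotation of their genome build was used here, so a region may hold a non-coding RNA, an unnamed part of a known gene or something else. No role is given to any of them. Signals of different probes depend on the probe as well as on the RNA, so a brighter probe does not mean more RNA than a dimmer one.

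The labels and the tissue were checked first. Pus1 (NM_001025561) was called in 0 of 4 mutants, against 4 of 4 wild types, with log2 ratios of mutant over wild type of −2.14, −2.11, −1.82 and −2.07 on arrays 1 to 4. All 8 hepatocyte markers examined were well above background in 8 of 8 samples, while the 2 kidney and the 2 pancreas markers were so in 0 samples. Of 3 skeletal muscle and heart markers, 2 were so in 0 samples. Of 2 gut markers, 1 was well above background in 8 of 8 samples and 0 were below it throughout. The summed log2 signal of 5 Kupffer cell markers lay between 56.1 and 59.9 in mutants, against 53.1 to 57.3 in wild types. That of 3 neutrophil markers lay between 27.6 and 29.6 in mutants, against 22.3 to 27.7 in wild types, and 0 markers of either list were below background throughout. The part of these markers in the results on region probes was not tested. In whole-liver RNA, fewer cells of a type and less RNA per cell cannot be told apart. Between 245 and 301 spots per array were left out as outliers, which affected 1 region probe.

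Most region probes gave no signal in liver. Of the 16194 on the array, 11310 were well above background in 0 of 8 samples, and 2137 were so in all 8. The remainder were called in some samples, with 313 in exactly 4, just inside the rule, and 297 in exactly 3, just outside it. Median log2 signal was 7.004 for those just inside and 6.91 for those just outside, so the rule divides probes of nearly the same brightness. Over the 3168 expressed region probes the mean log2 signal had a median of 7.67, with quartiles at 7.22 and 8.75. The brightest reached 17.8, and 403 probes, or 12.7%, were above 10. No spot of a region probe was saturated (0 on each of the arrays).

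Fewer region probes were called in male than in female livers. Among males, 18.3% and 17.1% of all region probes were well above background in mutants 3 and 4, against 17.5% and 17.4% in wild types 3 and 4. Among females, the shares were 22.2% and 19.9% in mutants 1 and 2, against 21.8% and 23.9% in wild types 1 and 2. Every male sample thus lay below every female sample, while the genotypes overlapped. Spots without a region name showed the same order, with 44.0% to 45.2% called in males, against 50.6% to 52.1% in females.

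Where a region had several probes, often only some of them were called well above background. Such calls depend on the probe as well as on the RNA. Of the 1872 regions with an expressed probe, 1175 had 1 and 697 had 2 or more, at most 10. Of the 1810 regions with 3 probes on the array, 641 had at least 1 expressed and 101 had all of them expressed. Longer regions more often held an expressed probe. Of regions up to 1000 bp, 29.2% had at least 1, and the share was 35.0% for regions of 1000 to 5000 bp, 43.3% up to 20000 bp, 46.3% up to 50000 bp and 49.3% beyond that. Longer regions also carry more probes. Per probe the shares were closer, 15.5% in the shortest class and between 19.5% and 20.9% in the others.

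Expression was spread over both strands. Of the probes whose name ends in F, the forward strand, 19.3% were expressed, and of those ending in R, the reverse strand, 19.8%. The array probed 1067 stretches on both strands. In 317 of these both strands had an expressed probe, in 218 only the forward strand, in 212 only the reverse strand and in 320 neither. Signal thus came from 1 strand in 40.3% of these stretches and from both in 29.7%. These shares were not set against those that unrelated strands would give, and calls depend on the probe. They do not tell whether RNA was made from 1 strand only.

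Region probes were expressed from every chromosome that had them on the array. The array had 0 region probes named for chromosome Y. The share expressed was 27.3% on chromosome 14, 25.2% on chromosome 19, 24.6% on chromosome 6 and 23.8% on chromosome 17. It was 14.7% on chromosomes 9 and X and 15.3% on chromosome 10. Chromosome 5, which carries Pus1, had 227 expressed region probes, 23.5% of its region probes. Chromosome 6 had the most, 241 in 125 regions.

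**Figure D1:**
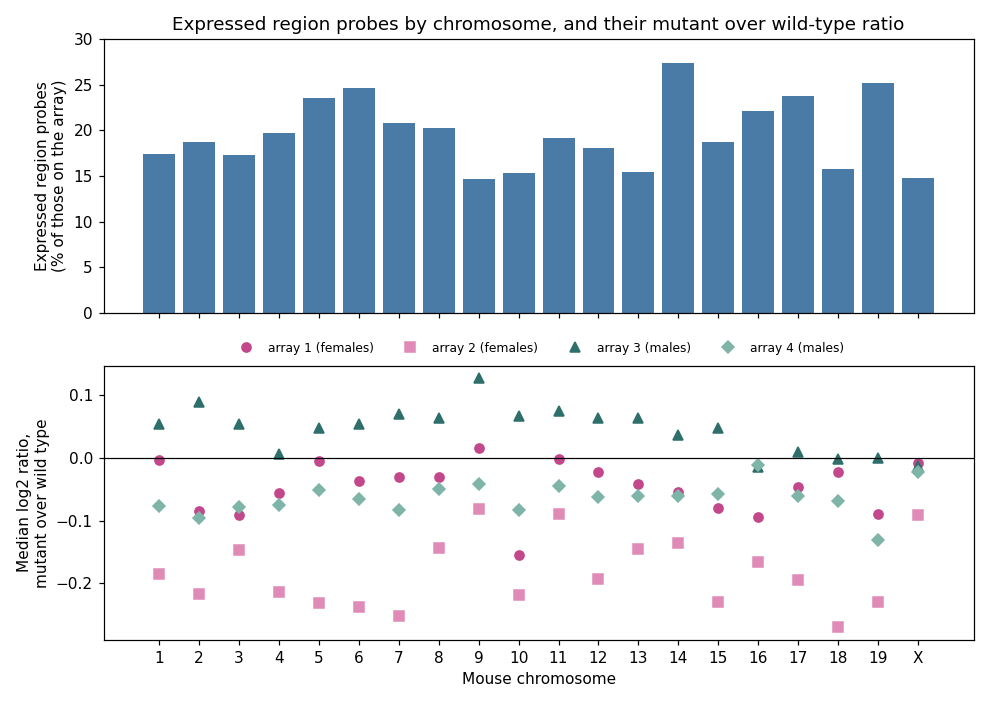
Expressed region probes by mouse chromosome. The upper bars give the percentage of each chromosome's region probes on the array that were well above background in at least 4 of 8 samples, from 14.7% (chromosomes 9 and X) to 27.3% (chromosome 14). The lower points give, for each array, the median log2 ratio of mutant over wild type of those probes. The medians of array 2 are below 0 on 20 of 20 chromosomes and those of array 3 on 4 of 20.

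The first comparison asked whether region probes differ between mutant and wild-type liver. No single region probe passed the test. With limma fitted to the log2 ratios of the 4 arrays with a term for dye, and Benjamini-Hochberg adjustment over all 22031 probes, 0 of 3168 region probes had an adjusted p under 0.05, as did 0% of all probes. The smallest adjusted p of a region probe was 0.539. Pus1 itself, with a fitted log2 ratio of −2.03, had an adjusted p of 0.0553 in limma and did not pass either. A count of 0 therefore does not show that no region probe differs. At an unadjusted p under 0.05 there were 212 region probes, 56 higher and 156 lower in mutants, or 6.69%, against 9.04% of all probes. The count is thus below the background in total. It differs in direction, since 1.77% of region probes were on the higher side, against 4.77% of all probes, and 4.92% on the lower side, against 4.27% of all probes. Both counts depended on the arrays. Without array 4, 309 region probes passed after adjustment, 9.75%, against 10.3% of all probes, which is no excess of region probes, and without array 1, 2 or 3, 0 passed. At the unadjusted p, 47, 95, 135 and 718 region probes were left without arrays 1, 2, 3 and 4 (1.48%, 3.00%, 4.26% and 22.7%, against 2.30%, 4.73%, 4.84% and 27.3% of all probes).

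Groups rarely separated. The 4 mutants lay wholly above the 4 wild types for 15 region probes (0.473%, against 1.27% of all probes) and wholly below for 40 (1.26%, against 0.849% of all probes). In all that is 1.74% of region probes, against 2.12% of all probes. The ratio had 1 sign on all 4 arrays for 466 region probes, 137 higher and 329 lower in mutants. That is 14.7%, against 17.8% of all probes. With median centring in place of loess the order turned, 5.59% of region probes against 4.46% of all probes, so the total says nothing firm about region probes. With loess the lower side was again the larger one for region probes, 10.4% against 8.57% of all probes, and the higher side the smaller, 4.32% against 9.19%.

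As a class, region probes read slightly lower in mutants than other probes did. Their median log2 ratio was −0.063, against −0.0003 for the 18863 other probes, and 2138 of 3168, or 67.5%, were below 0, against 52.6% of all probes. The size of this shift varied between arrays. On arrays 1 and 2, the females, the median of region probes was −0.04 and −0.19, and on arrays 3 and 4, the males, it was 0.05 and −0.06. The other probes stayed between −0.005 and 0.013 on the 4 arrays. Array 3 thus ran the other way, and array 2 had the largest shift. Without array 2 the median was −0.035, and over the alternatives that leave out 1 array it lay between −0.086 and −0.035.

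Dye and brightness moved with this shift. The median dye coefficient, the part of the ratio that follows Cy5 over Cy3, was 0.060 for region probes, against 0.005 for other probes. In the fit by sex, the median ratio of region probes was −0.11 in females and −0.006 in males. In females it was −0.066 for region probes with a mean log2 signal under 7.5, and −0.12, −0.14, −0.17 and −0.22 in the classes of 7.5 to 8, 8 to 9, 9 to 10 and over 10. The medians of other probes in the same classes lay between −0.013 and 0.021. The dye coefficient of region probes was 0.033 in the dimmest class and 0.11 in the brightest. The part of dye and of array 2 in the shift was not tested.

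**Figure D2:**
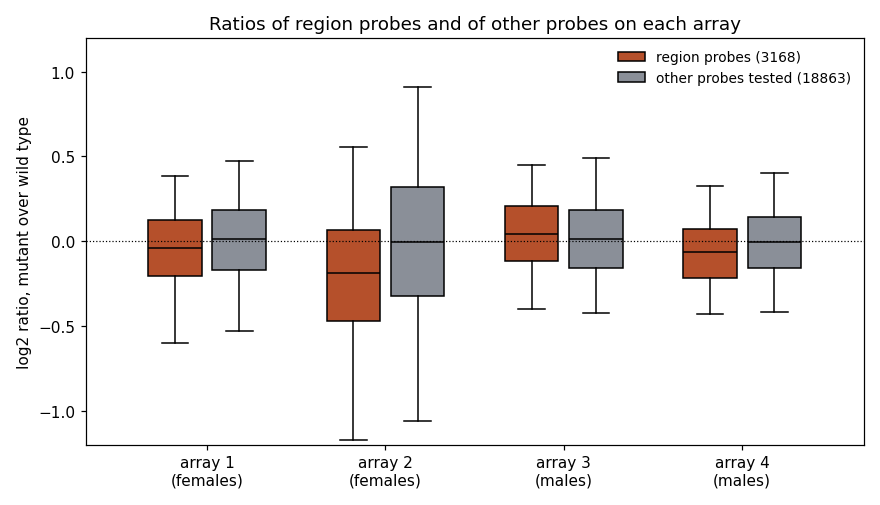
Log2 ratios of mutant over wild type on each array, for 3168 region probes (left box of each pair) and 18863 other expressed probes (right box). Boxes span the quartiles of the probes with a line at the median, and whiskers run from the 5th to the 95th percentile. The region probes' median is at −0.04, −0.19, 0.05 and −0.06 on arrays 1 to 4, and the other probes' median is near 0 on each.

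The shift was present along the whole genome rather than on a few chromosomes. The median ratio of region probes was below 0 on 20 of 20 chromosomes. By array, it was below 0 on 19 chromosomes for array 1, 20 for array 2, 4 for array 3 and 20 for array 4. Medians lay between −0.10, on chromosomes 2, 10 and 18, and −0.02, on chromosome 9. Chromosome 5 had −0.07 and was not apart from the others. Strand made little difference, with −0.058 for probes of the forward strand and −0.068 for those of the reverse strand.

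Chromosomes differed more in how many single probes reached an unadjusted p under 0.05. Chromosome 19 had 14 of 81 (17.3%), all of them lower in mutants, and chromosome 6 had 29 of 241 (12.03%), 14 higher and 15 lower. Chromosome 12 had 2 of 149 (1.34%). Probes of 1 region are no independent replicates, and these counts rest on few regions. On chromosome 19 the 14 probes came from 8 regions, and the stretch between 5.7 and 5.9 Mb alone, singled out after its values were seen, held 23 expressed probes in 7 regions, of which 10 reached that p and 21 were lower in mutants. On chromosome 6 the 29 probes came from 13 regions, 5 of them from the single region chr6:83541250-83560425.

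Probes of 1 region moved alike. Over the 697 regions with 2 or more expressed probes, the genotype ratio of the first 2 had a Pearson r of 0.71, as a description over regions that share the arrays. All probes had 1 sign in 436 of these regions, 93 higher and 343 lower in mutants. Opposite strands of 1 stretch had a lower r of 0.20, taken over the median of each strand in the 317 stretches with an expressed probe on both. The strand medians had the same sign in 208 of these. The 2 counts of signs cannot be set against each other, since the first asks all probes of a region to agree. With 67.5% of region probes below 0, many signs would match in any case.

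Single regions are described next, with coordinates of mouse build mm9 (NCBI37), the build in the headers of the array files. Most probes were taken by rule as those of smallest p, separately for higher and for lower, whose ratio kept its sign on each array, together with the 4 of smallest p on chromosome 5. For probes taken by the sign rule, 1 sign on all 4 arrays was set by that choice and is only a description. Regions picked after their values were seen are named as such, and none of the probes passed the adjusted test. In each case log2 signals are given for mutants 1 to 4 and then for wild types 1 to 4, females first.

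The highest ratio in mutants was in a region of chromosome 9, chr9:78107225-78118850, on the forward strand. Its probe A_30_P01018914 had log2 signals of 10.13, 11.02, 11.20 and 10.38 in mutants, against 7.18, 9.42, 10.33 and 8.97 in wild types. Each mutant exceeded the wild type of its own array, though the groups overlapped, since wild type 3 lay above mutant 1. The fitted log2 ratio was 1.71 ± 0.32 (SE, 4 arrays), a fold of 3.27. The second probe of the region, A_30_P01028766, gave 2.34, 1.63, 0.56 and 1.43 on arrays 1 to 4 and a fitted ratio of 1.49 ± 0.28. In females the fitted ratio of A_30_P01018914 was 2.28 and in males 1.14, a difference of 1.13 ± 0.49 (SE) that did not pass the genotype-by-sex test.

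A second region, chr9:78104935-78116974, overlaps it by 9750 bp on the same strand. Its single expressed probe, A_30_P01020518, had 12.33, 12.61, 12.35 and 11.77 in mutants, against 11.60, 12.06, 11.98 and 11.27 in wild types. Its ratios of 0.73, 0.55, 0.37 and 0.49 were all above 0, with a fitted value of 0.54 ± 0.11 (SE). The 2 regions thus read in the same direction but by different amounts, 1.71 and 1.49 in one and 0.54 in the other.

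On chromosome 5, 3 regions that overlap each other on the forward strand read higher in mutants. The probe A_30_P01026385 of chr5:137395007-137412976 had 9.33, 9.40, 9.25 and 9.08 in mutants, against 8.58, 8.85, 8.67 and 8.67 in wild types. All mutants lay above all wild types, with a fitted ratio of 0.57 ± 0.10 on the log2 scale (SE). The probe A_30_P01020631 of chr5:137411861-137413010 had ratios of 0.56, 0.54, 0.75 and 0.07. The probe A_30_P01023875 of chr5:137392195-137426421 had ratios of 0.55, 0.49, 0.75 and 0.06. Those 2 probes show nearly the same set of ratios, and both were lowest on array 4. In the longest of the 3 regions, 6 of 7 expressed probes were above 0, with a median of 0.21. The fourth region named for chromosome 5, chr5:35975265-35982561, had 4 of 4 expressed probes above 0 with a median of 0.36, and its probe A_30_P01021642 had ratios of 0.63, 0.30, 0.26 and 0.47.

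Several regions of chromosome 6 also read higher in mutants. The probe A_30_P01017482 of chr6:4841700-4847400, on the reverse strand, had 9.37, 9.16, 9.31 and 8.94 in mutants, against 8.85, 8.46, 8.84 and 8.54 in wild types. All mutants lay above all wild types, with a fitted ratio of 0.52 ± 0.11 (SE), and the other probe of the region gave 0.47. The region chr6:83541250-83560425 had 5 of 5 expressed probes above 0, with fitted ratios of 0.50 to 0.63. Its probe A_30_P01025992 had 9.90, 9.73, 10.17 and 10.10 in mutants, against 9.59, 8.93, 9.72 and 9.66 in wild types. The mutants lay above the wild types there too, and wild type 2 was the lowest by far.

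The region chr6:116123643-116124550, 908 bp on the forward strand, had 3 of 3 probes higher in mutants. Its probe A_30_P01026611 had 12.61, 12.83, 12.32 and 12.26 in mutants, against 12.37, 11.32, 11.63 and 11.63 in wild types. The ratios were 0.25, 1.52, 0.68 and 0.62, so array 2 gave the most, and wild type 1 overlapped the mutants. The fitted ratio was 0.77 ± 0.18 (SE). This short region lies inside chr6:116092274-116144199 on the same strand, whose 3 expressed probes had fitted ratios between −0.14 and −0.07. The 2 nested regions therefore did not read alike.

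One region read higher in mutants only as a bound. The probe A_30_P01019123 of chr17:95150800-95180650 was called in all 4 mutants but in 0 wild types. It had 7.13, 7.39, 7.38 and 7.34 in mutants, against 6.86, 6.52, 6.97 and 6.85 in wild types, which gives at least 1.42-fold higher in mutants when the wild types are set at their arrays' lowest well-measured signal or their own value, whichever was higher. The reverse held for A_30_P01019010 of chr11:96111499-96126224, called in 0 mutants but in all 4 wild types. It had 6.53, 6.59, 6.63 and 6.96 in mutants, against 6.93, 7.03, 7.15 and 7.45 in wild types, at least 1.37-fold higher in wild types by the same reckoning. Both are dim probes near the limit of detection. Each met the rule of at least 4 samples only through the group where it was higher. The calls of 4 against 0 and the bounds are thus tied to that selection and are given only as a description.

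**Figure D3:**
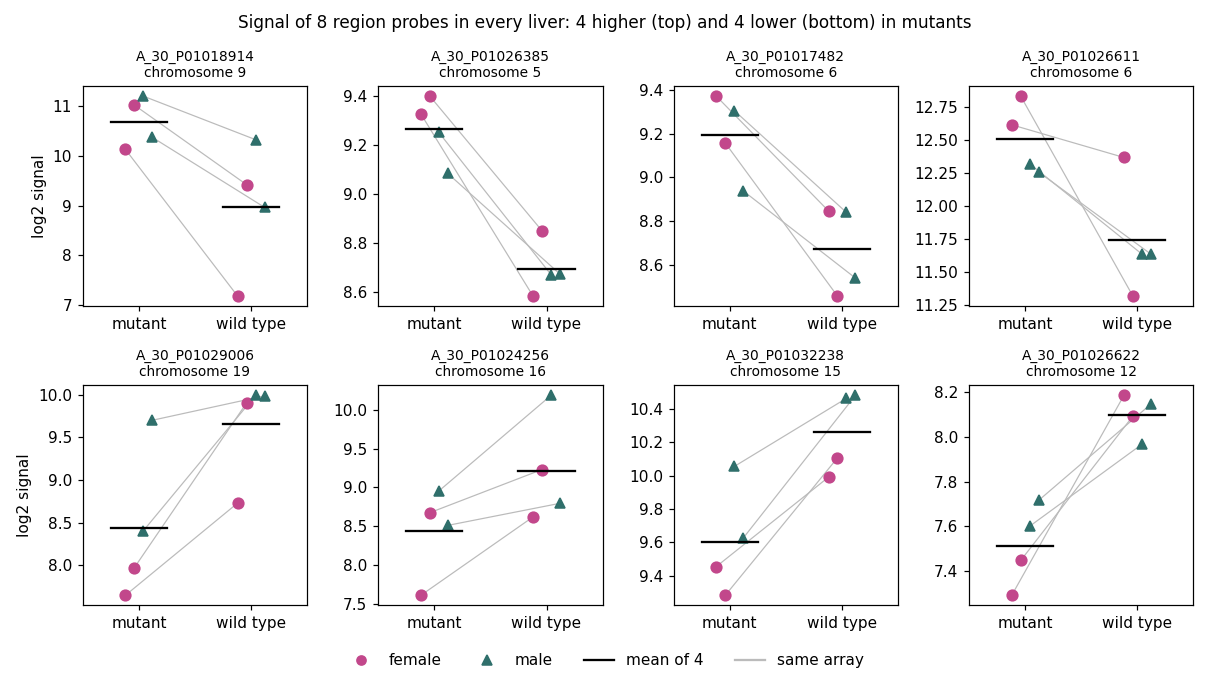
Log2 signal of 8 region probes in 4 mutant and 4 wild-type livers (mutants on the left of each panel), with a line at the mean of 4 and grey lines joining livers of 1 array. Circles are females and triangles males. The upper row holds probes higher in mutants, with fitted log2 ratios of 0.52 or more, and the lower row probes lower in mutants, from −0.58 (A_30_P01026622) to −1.22 (A_30_P01029006). Each panel has its own scale.

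The lower side was led by a region of chromosome 19. In chr19:5834117-5835940, on the reverse strand, 3 of 3 expressed probes had fitted ratios between −1.22 and −1.09. The probe A_30_P01029006 had 7.65, 7.97, 8.41 and 9.70 in mutants, against 8.73, 9.90, 9.99 and 9.99 in wild types. Its ratios were −1.08, −1.93, −1.59 and −0.29, below 0 on every array but by unequal amounts. The groups overlapped, since mutant 4 lay above wild type 1. The fitted ratio was −1.22 ± 0.27 (SE).

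About 31519 bp away on the same strand lies chr19:5801802-5802597, a region picked after its values were seen, whose 3 probes also had ratios below 0 on all 4 arrays. Its probe A_30_P01031754 had 15.40, 14.80, 15.90 and 15.88 in mutants, against 15.85, 17.52, 16.13 and 16.33 in wild types. Here the value rests on array 2, with a ratio of −2.72, against −0.45, −0.23 and −0.46 on arrays 1, 3 and 4. The fitted ratio of −0.97 ± 0.35 (SE) carries that spread. Wild type 2 stood highest of the 8 livers at every probe of this region.

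A region of chromosome 16, chr16:23992037-24001037, had 6 of 6 expressed probes below 0, with fitted ratios of −0.77 to −0.42. Its probe A_30_P01024256 had 7.61, 8.67, 8.95 and 8.51 in mutants, against 8.62, 9.23, 10.19 and 8.79 in wild types. Each mutant was below the wild type of its own array, with ratios of −1.01, −0.56, −1.23 and −0.28, while the groups overlapped. Variation between arrays was as large as that between genotypes in this region, with wild type 3 the highest and mutant 1 the lowest. The fitted ratio was −0.77 ± 0.11 (SE).

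In 3 further regions a probe was taken by the same rule for lower ratios. The probe A_30_P01032238 of chr15:100908323-100908645 had 9.46, 9.28, 10.05 and 9.63 in mutants, against 9.99, 10.11, 10.46 and 10.48 in wild types. Its fitted ratio was −0.66 ± 0.10 (SE), but the other 2 expressed probes of that region, A_30_P01022319 and A_30_P01025667, gave −0.13 and 0.01. The probe A_30_P01026622 of chr12:4469975-4482792 had 7.29, 7.45, 7.60 and 7.72 in mutants, against 8.19, 8.09, 7.97 and 8.15 in wild types. The mutants lay wholly below the wild types, with a fitted ratio of −0.58 ± 0.13 (SE), and the other probe of the region gave −0.37. In chr2:67836003-67836461 all 3 probes were below 0 on every array, with fitted ratios of −0.62 to −0.34, and A_30_P01024596 had ratios of −0.35, −1.23, −0.35 and −0.54.

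The second comparison asked whether the genotype ratio differs between females and males. With 1 female and 1 male ratio per dye orientation the fit leaves 1 residual degree of freedom, and 0 region probes passed after adjustment, as did 0% of all probes. The smallest adjusted p was 0.859. At an unadjusted p under 0.05 there were 169 region probes, or 5.33%, against 5.51% of all probes. Of these, 145 had the lower ratio in females and 24 the higher. The split by direction was not counted over all probes. The whole class of region probes had a median ratio of −0.11 in females and −0.006 in males, so the split is no result about these probes.

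Some regions were low in mutant females, and less so or not in mutant males. These regions were picked after their values were seen, as those with at least 3 expressed probes and the most extreme medians. A pair of them lie 35870 bp apart on the reverse strand of chromosome 6. In chr6:31078802-31079644 the probe A_30_P01029853 had 9.38 and 9.35 in mutant females, against 11.16 and 11.91 in wild-type females. In males it had 11.53 and 11.18 in mutants, against 11.62 and 11.37 in wild types. The ratio was −2.17 in females and −0.14 in males, and the difference was −2.04 ± 0.26 (SE). All 3 probes of the region showed this, with −2.17 to −1.98 in females and −0.19 to −0.14 in males.

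In the neighbouring region, chr6:31115515-31168433, the probe A_30_P01023118 had 8.42 and 8.82 in mutant females, against 10.50 and 10.62 in wild-type females. In males it had 10.10 and 10.01 in mutants, against 10.08 and 10.34 in wild types. Its ratio was −1.94 in females and −0.16 in males. Thus both mutant females were low at both regions, under either dye, while the 2 mutant males were near the wild-type males. Neither region passed the adjusted test, and 2 animals per group bear on it.

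A smaller case of the same kind was chr8:19792940-19798868. Its probe A_30_P01028290 had 9.43 and 9.96 in mutant females, against 10.99 and 11.12 in wild-type females, and 10.49 and 10.698 in mutant males, against 10.74 and 10.74 in wild-type males. At all 3 probes the 4 mutants lay below the 4 wild types, with ratios of −1.36 to −1.18 in females and −0.27 to −0.14 in males. In chr3:85783094-85783408 the probe A_30_P01030141 had 8.03 and 7.83 in mutant females, against 9.01 and 9.89 in wild-type females. Its males had 9.22 and 9.35 in mutants, against 9.13 and 9.61 in wild types, so the ratio was −1.52 in females and −0.08 in males.

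Higher ratios in females also occurred. In chr6:122741562-122743423, on the reverse strand, the probe A_30_P01018332 had 9.91 and 9.88 in mutant females, against 8.92 and 8.52 in wild-type females. The males had 8.65 and 8.58 in mutants, against 8.04 and 8.49 in wild types. Its ratio was 1.18 in females and 0.35 in males. In chr9:14460976-14488051, 5 of 5 expressed probes had fitted ratios above 0, between 0.29 and 0.57 over both sexes. Array 4 gave the lowest or nearly the lowest ratio at both regions.

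**Figure D4:**
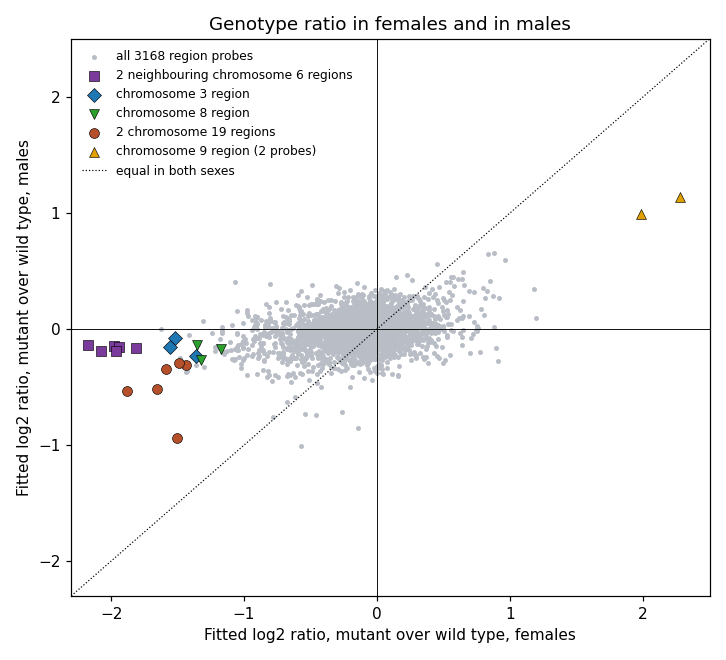
Fitted log2 ratio of mutant over wild type in females (horizontal) and in males (vertical) for 3168 region probes, 1 point per probe. Coloured symbols mark the probes of regions described in the text, and the dotted line marks equal ratios in both sexes. The 6 probes of the neighbouring chromosome 6 regions lie near −2 in females and near 0 in males, and the 2 probes of the chromosome 9 region are high in both.

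The third comparison asked how region probes differ between male and female livers. Males and females were never on 1 array, so the sexes were compared on single channels after normalization between arrays, averaged over genotypes. Of 3167 region probes with values on all arrays, 2 passed an adjusted p under 0.05 in limma, 0.0632%, against 0.214% of all probes. Both rose in males, against 0.1% of all probes in that direction. Where probes had to be well above background in all 8 samples, 0 region probes passed, and the adjusted p of these 2 was then 0.0586 and 0.0591. Without arrays 1, 2, 3 and 4, 13, 248, 7 and 8 region probes passed (0.410%, 7.83%, 0.221% and 0.253%, against 1.10%, 7.48%, 0.813% and 0.604% of all probes). Without the array as a block the same fit gave 710, or 22.4%, against 18.4% of all probes, 605 of them higher in males.

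The larger of the 2 was A_30_P01027122 of chr1:193875525-193978800, on the reverse strand. It had 17.98 and 17.89 in mutant males and 17.60 and 17.72 in wild-type males, against 15.24 and 15.38 in mutant females and 15.09 and 14.82 in wild-type females. Every male lay above every female. The fitted difference was 2.67 ± 0.24 on the log2 scale (SE), a fold of 6.34 with an adjusted p of 0.0301 in limma. Its region has 2 expressed probes, and the other, A_30_P01030147, differed by 0.51.

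The second was A_30_P01024647 of chr4:135896689-135918414, also on the reverse strand and the only expressed probe of its region. It had 11.30 and 10.703 in mutant males and 10.82 and 10.84 in wild-type males, against 8.97 and 8.90 in mutant females and 8.80 and 9.09 in wild-type females. The difference was 1.98 ± 0.18 (SE), with an adjusted p of 0.0325 in limma, and it did not pass with processed signals (0.0728) or the deposited series table (0.0740). Again no male fell within the range of the females.

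A further 4 probes named by rule were higher in males without passing. A_30_P01022043 of chr7:50509139-50526856 averaged 11.11 ± 0.19 in males and 9.23 ± 0.10 in females (SD, n = 4 each). A_30_P01017959 of chr10:87541696-87547421 averaged 9.93 ± 0.14 in males and 8.26 ± 0.10 in females. A_30_P01022804 of chr7:134369091-134376468 averaged 11.16 ± 0.13 in males and 9.91 ± 0.14 in females. Their differences were 1.25 to 1.88, with an adjusted p in limma of 0.0537 to 0.0679. Each of these regions has 2 expressed probes, whose median difference was lower, at 1.39, 1.36 and 0.65 in the order given. Since these probes were named for a small p by sex, and the 4 livers of a sex share 2 arrays, the SDs are only a description. A_30_P01019455 of chr11:95573399-95587949 averaged 12.77 ± 0.12 in males and 11.59 ± 0.17 in females.

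On the female side, 6 probes in 4 regions were named and 0 passed. The 3 expressed probes of chr10:81680941-81704964 were alike. A_30_P01027863 had 13.26 and 13.26 in mutant males and 13.41 and 13.30 in wild-type males, against 14.33 and 14.24 in mutant females and 14.15 and 13.87 in wild-type females. The differences of male minus female at the 3 probes were −0.84, −0.77 and −0.72. A_30_P01025384 of chr12:82495575-82516300 averaged 11.97 ± 0.06 in males and 12.99 ± 0.33 in females. A_30_P01032537 of chr15:8463685-8494960 had a difference of −0.89 and A_30_P01025495 of chr14:62254361-62301162 one of −0.73.

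On chromosome X, the 3 probes with the smallest p by sex were all higher in males. A_30_P01025131 of chrX:18744367-18853992, on the reverse strand, averaged 8.40 ± 0.05 in males and 7.505 ± 0.08 in females (SD, n = 4 each). A_30_P01031275 of chrX:50087925-50101700 averaged 10.22 ± 0.07 in males and 9.49 ± 0.19 in females. A_30_P01031246 of chrX:98979320-98997145 differed by 0.70. Their adjusted p in limma lay between 0.108 and 0.13.

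As a class, region probes read higher in males, and by more than they differed by genotype. The median difference of male minus female was 0.20, against −0.03 for other probes, and 74.4% of region probes were higher in males, against 46.7% of other probes. The 4 males lay wholly above the 4 females for 818 region probes, or 25.8%, against 12.6% of all probes, and wholly below for 130, or 4.1%, against 11.5% of all probes. At an unadjusted p under 0.05, 648 region probes differed, 559 higher in males (17.7%, against 8.46% of all probes) and 89 higher in females (2.81%, against 7.56% of all probes). Of the region probes, 123 were called in all 4 females and 0 males, and 1 in all 4 males and 0 females. These met the rule only through 1 sex, so their part in the counts is tied to that selection. Among the 2137 region probes called in all 8 samples, 79.1% were higher in males, against 48.6% of other probes so called. The median was above 0 on 20 of 20 chromosomes, X included. On chromosome X it was 0.25 and on chromosome 9 it was 0.13, the ends of the range.

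Brightness moved with the sex difference as it did with the genotype shift. The median difference was 0.14 for region probes under a log2 signal of 7.5, and 0.22, 0.26, 0.29 and 0.36 in the classes of 7.5 to 8, 8 to 9, 9 to 10 and over 10. Other probes had between −0.05 and −0.02 in these classes. This runs opposite to the calls above background, of which region probes had more in females. The part of the arrays in this difference was not tested, since each array holds 1 sex and 2 arrays stand for each.

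**Figure D5:**
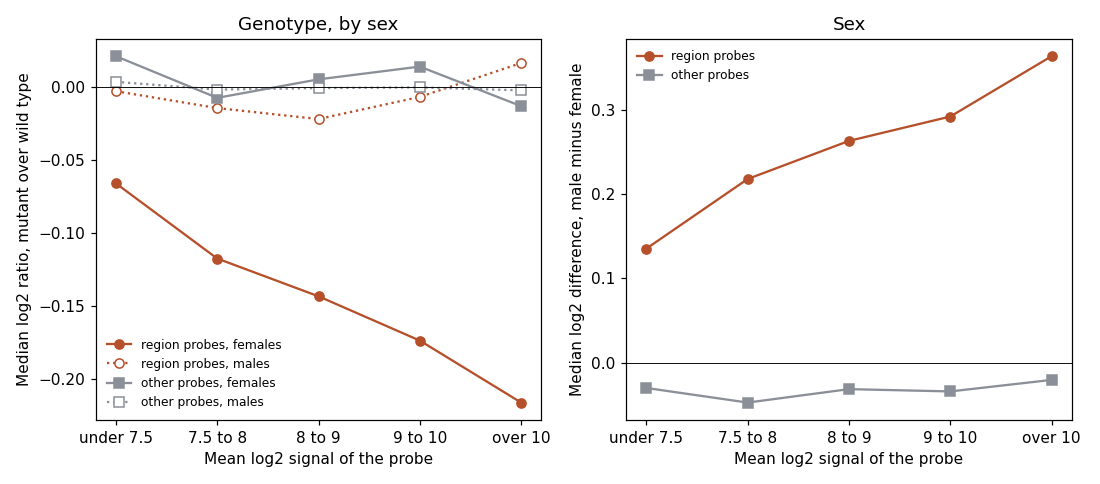
Median log2 differences in 5 classes of mean log2 signal, for region probes and other expressed probes. The left panel gives the ratio of mutant over wild type in females (filled, solid line) and males (open, dotted line), and the right panel the difference of male minus female. For region probes the female ratio is −0.066 in the dimmest class and −0.22 in the brightest, and the sex difference 0.14 and 0.36, while other probes stay near 0.

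The 8 brightest region probes lay further from 0 than the class median on arrays 2, 3 and 4, in the same directions. They were A_30_P01031448 (chr14:78924115-78938125), A_30_P01023523 (chr6:116092274-116144199), A_30_P01031264 and A_30_P01020570 (chr12:73838608-73862621, on the reverse and the forward strand), A_30_P01032016 (chr6:83368261-83407280), A_30_P01026230 (chr2:31714946-31716972), A_30_P01020476 (chrX:18744367-18853992) and A_30_P01032942 (chr4:94742359-94822969). On array 2 all 8 had ratios between −0.88 and −0.47, and on array 3 all 8 were between 0.16 and 0.46. Array 4 gave −0.41 to −0.11 and array 1 gave −0.16 to 0.03. Fitted ratios lay between −0.25 and −0.10, against a median of −0.063 for the class, beside SEs of 0.11 to 0.15. All 8 were higher in males, by 0.22 to 0.65.

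In the 4 stretches with the strongest signal on both strands, the probe named on each strand is described. These 8 probes were alike on array 2, where all 8 were below 0, and less so on the others. In chr14:115423660-115463160 the forward probe A_30_P01028277 had 12.24, 11.80, 13.59 and 12.93 in mutants, against 12.14, 12.97, 12.91 and 13.61 in wild types. The reverse probe A_30_P01031683 had 11.26, 11.01, 12.47 and 12.04 in mutants, against 11.40, 11.81, 12.11 and 12.35 in wild types. On both strands the mutant exceeded the wild type on array 3 and was below it on arrays 2 and 4. The dye was swapped between arrays 3 and 4, so the livers marked with Cy5 were the brighter ones in both male pairs, as they were on array 2. On array 1 the Cy5 liver was brighter at the forward probe, with a ratio of 0.10, and dimmer at the reverse probe, with −0.14.

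In chr17:39960567-39992817 the forward probe A_30_P01023888 had 14.44, 14.65, 15.24 and 16.09 in mutants, against 14.84, 15.39, 15.22 and 16.31 in wild types. The reverse probe A_30_P01019912 had ratios of −0.13 on array 3 and 0.35 on array 4, where the forward probe had 0.02 and −0.22, so the strands were not alike there. In chr5:34696192-34722842 the forward probe A_30_P01023896 had a fitted ratio of −0.11 and the reverse probe A_30_P01027463 one of −0.22. Across the 8 named probes of the 4 stretches, fitted ratios ran from −0.33 to −0.11, and males were higher by 0.39 to 0.97. Other expressed probes of these stretches were not all below 0. The highest on the forward strand of chr12:73838608-73862621 had 0.10, and that on the reverse strand of chr5:34696192-34722842 had 0.13.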

How the data were processed

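Liver RNA of 8 mice was measured on 4 2-colour Agilent arrays of 1 slide. Per the file headers, Agilent Feature Extraction 10.7.3.1 made the deposited intensity values (median brightness of spot and local background, and a processed signal) and other values, marks of 0 or 1 for well above background, saturated and outlier. The deposited table of the series has log2 values, whose scale and centring are not stated. They look like log2 processed signals centred on each probe's median, and sample medians lay between −0.0135 and 0.0150. A further 68 columns of the array files were left unused.

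Signals were background-corrected (normexp, offset 50) and loess-normalized within arrays in limma 3.58.1 (R 4.3.3), with outlier spots left out, spots of a probe averaged and probes not merged by region. A mean signal had been planned; the files used here give medians. The genotype fit used log2 ratios with a dye term, and the sex fit used Aquantile-normalized channels with a within-spot correlation of 0.792. Benjamini-Hochberg adjustment covered all tested probes at a threshold of 0.05. Samples with 1 replicate number share an array per the labels, which pairs them. Deviations of same-numbered samples from the genotype means correlated at 0.567, 0.098, 0.465 and 0.518 over region probes. Scripts were tested on simulated data. Animals were separate per the series design, and the number of arrays limits precision. Members, lists and the naming rule were chosen with earlier results of these data known. Probes were named as the 8 brightest, the 8 smallest p in each direction by genotype and 6 by sex (1 sign on all arrays for genotype), 4 on chromosome 5, 4 stretches with both strands, and 3 on chromosome X. Members on chromosome 18 were counted, not named. No sequence is shown, since no genome of build mm9 was used.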

Additional observations from a re-analysis of the deposited data

Results flagged for a closer look

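Among 96 groups of 4 livers (the named probes by genotype), 5 held a sample that stood apart from the other three by more than Dixon's 95% criterion for groups of 4, about as many as chance gives at 1 in 20. In chr16:23992037-24001037 the probe A_30_P01033600 had mutant 1 lowest of the mutants at a log2 signal of 7.05 and wild type 3 highest of the wild types at 9.52, on different arrays. Wild type 1 stood lowest of the wild types at A_30_P01029006 of chr19:5834117-5835940, at 8.73, and at A_30_P01024596 of chr2:67836003-67836461, at 9.18. At A_30_P01025992 of chr6:83541250-83560425, wild type 2 stood lowest of the wild types at 8.93. All of these lie in regions whose other values are given above.

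At 4 named probes the log2 ratio of mutant over wild type was above 0 on both female arrays and below 0 on both male arrays. The female minus male difference of the log2 ratio was 0.35, 0.29 and 0.37 at A_30_P01023384, A_30_P01027272 and A_30_P01027863 of chr10:81680941-81704964, and 0.10 at A_30_P01025131 of chrX:18744367-18853992. These differences did not pass the genotype-by-sex test, and each has an SE of 0.21. The last, 0.10, is smaller than its SE.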

How the results depend on the processing

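With 2 arrays per sex and 4 in all, the number of arrays limits the precision, and dim probes near the background add noise. Without array 4, 309 region probes passed by genotype (9.75%, against 10.3% of all probes), and 0 passed without array 1, 2 or 3. Leaving out each array gave 7 to 248 region probes by sex. Fits without one array kept the within-spot correlation of the full set. Where a probe had to be well above background in all 8 samples, 0 region probes passed by sex, and without the array as a block (the pairing of samples) 710 did (22.4%, against 18.4% of all probes). The genotype count was 0 with and without that block. At an unadjusted p under 0.05 it was 97 without the block (3.06%, against 3.48% of all probes) and 212 with it (6.69%, against 9.04% of all probes). The share with 1 sign on all arrays was 5.59% with median centring in place of loess (4.46% of all probes), and 21.1% to 35.0% when 1 array was left out, where fewer arrays have to share a sign. Asking for at least 1 of 8 samples well above background gave 4884 members. The cause of the other changes was not tested. The median genotype ratio stayed below 0 under every alternative run, from −0.10 with processed signals to −0.016 without the filter on dim probes. For named probes, none of the alternatives turned a direction: by genotype 221 values kept their side of the threshold and 16 came to pass, and by sex 113 kept it, 32 came to pass and 4 no longer passed.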
